A study of Mus musculus with 6 samples.

Results

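The macrophage genes Lyz2 and Tyrobp and the endothelial gene Pecam1 were followed in livers of Mul1(+/+) and Mul1(−/−) mice on a high-fat diet (HFD). They were taken by symbol from the deposited table, and all 3 were found among its 3542 genes. The series holds mRNA sequencing of liver tissue from 3 Mul1(+/+) and 3 Mul1(−/−) mice, all fed the HFD for 16 weeks from young adulthood. The Mul1(−/−) animals lack Mul1, the gene of a mitochondrial E3 ubiquitin ligase, in the whole body and came from crosses of heterozygous mice. The study used male and female mice, and neither the strain nor the sex of these 6 animals was given in the sources used here. The study asked which genes differ between the livers of the 2 genotypes on HFD.

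Macrophages of the liver are Kupffer cells, which sit in the sinusoids and take up particles and dying cells, and cells that are recruited from blood monocytes. Lyz2 encodes lysozyme, an enzyme that cleaves bacterial cell walls and that macrophages, monocytes and neutrophils make in large amounts. Tyrobp encodes DAP12, a small membrane adaptor with a signalling motif that macrophages, natural killer cells and some dendritic cells use for receptors that cannot signal on their own, such as TREM2. Pecam1 encodes CD31, an adhesion molecule at the contacts of endothelial cells, also carried by platelets and leukocytes. The liver's sinusoidal endothelium is perforated and scavenges material from blood.

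The values, called normalized counts here, are the authors' read counts after division by a scaling factor of each library. The table lists genes that the authors had already selected for a difference between these same libraries, so each of the 3 genes had to differ to be found in it, and the tests below are not independent of that selection. Genes outside the table were not analysed here. The labels name hepatocytes as the cell type, whereas the protocol names liver tissue, and genes of macrophages, endothelium and lymphocytes had reads in every library. Mul1 itself had normalized counts of 3172, 3232 and 3423 in the Mul1(+/+) livers. The Mul1(−/−) livers gave 1037, 965 and 1753, so the libraries labelled Mul1(−/−) still held reads of the gene, at 38.2% of the Mul1(+/+) mean. The table's genes held between 11932167 and 15385817 reads per library. Genes of the mitochondrial genome took 49.4%, 22.8% and 15.4% of the table's summed value in Mul1(−/−) replicates 1 to 3, and between 10.7% and 13.4% in Mul1(+/+).

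Lyz2 (ENSMUSG00000069516) lies on chromosome 10 of GRCm38 at chr10:117277331-117282321 on the minus strand, with 4 exons in its one annotated transcript of 1316 nucleotides. The related lysozyme gene Lyz1 lies 5475 bases away on the same strand, was not analysed here, and differs from it at 22 of the 444 coding bases. The first 90 coding bases of both transcripts are shown because reads from such stretches bear on which of the 2 genes a read was counted for, and capitals mark the 7 positions at which they differ.
Lyz2: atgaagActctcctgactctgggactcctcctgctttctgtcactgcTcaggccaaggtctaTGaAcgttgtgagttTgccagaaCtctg
Lyz1: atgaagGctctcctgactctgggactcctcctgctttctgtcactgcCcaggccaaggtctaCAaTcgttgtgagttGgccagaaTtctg
Of the 50-base windows of the Lyz2 transcript, 15.4% also occur in the Lyz1 transcript, and of the 100-base windows 1.97%. The value of Lyz2 is uncertain to the extent that the authors' counting divided or dropped such reads.

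Lyz2 was higher on average in Mul1(−/−) HFD-liver, but the groups overlapped. Replicates 1 to 3 of Mul1(+/+) had 2546, 3954 and 2191 normalized counts. The Mul1(−/−) replicates, in the same order, had 3632, 6648 and 10277. Mul1(−/−) replicate 1 lay below Mul1(+/+) replicate 2, and the other 2 Mul1(−/−) libraries lay above all 3 Mul1(+/+) libraries. Mul1(−/−) livers averaged 6852 ± 3327 (SD, n = 3) and Mul1(+/+) livers 2897 ± 932 (SD, n = 3), a ratio of means of 2.37. On the scale of log2(normalized count + 1) the difference was 1.16 (standard error 0.48, 95% interval 0.10 to 2.23, adjusted p = 0.0380 from limma), and the exact two-sided permutation test gave p = 0.2. With 3 mice per group this test cannot give a p below 0.1.

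Tyrobp (ENSMUSG00000030579) lies at chr7:30413760-30417585 on the plus strand, with 5 exons in its longest coding transcript of 597 nucleotides. It was higher in every Mul1(−/−) library than in any Mul1(+/+) library. The Mul1(+/+) replicates, in order, had 485, 481 and 256 normalized counts of it, and the Mul1(−/−) replicates 710, 1593 and 1243. The lowest Mul1(−/−) value again came from replicate 1, and the highest from replicate 2, whereas Lyz2 was highest in replicate 3. Mul1(−/−) livers averaged 1182 ± 445 (SD, n = 3) and Mul1(+/+) livers 408 ± 131 (SD, n = 3), a ratio of means of 2.90. The log2 difference was 1.52 (standard error 0.46, 95% interval 0.49 to 2.54, adjusted p = 0.0158 from limma; exact two-sided permutation test, p = 0.1).

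Pecam1 (ENSMUSG00000020717) lies at chr11:106654217-106750628 on the minus strand, with 16 exons in its longest coding transcript of 3441 nucleotides. It was lower in every Mul1(−/−) library than in any Mul1(+/+) library. The Mul1(+/+) replicates, in order, had 893, 788 and 832 normalized counts of it, and the Mul1(−/−) replicates 354, 452 and 403. Of the 3 genes it had the least spread within a genotype, with a coefficient of variation of 6.26% in Mul1(+/+) and 12.2% in Mul1(−/−), against 32.2% and 48.6% for Lyz2 and 32.1% and 37.6% for Tyrobp. Mul1(−/−) livers averaged 403 ± 49.2 (SD, n = 3), which is 48.1% of the 838 ± 52.4 (SD, n = 3) of Mul1(+/+) livers. The log2 difference was −1.06 (standard error 0.37, 95% interval −1.88 to −0.24, adjusted p = 0.0228 from limma; exact two-sided permutation test, p = 0.1).

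**Figure D1:**
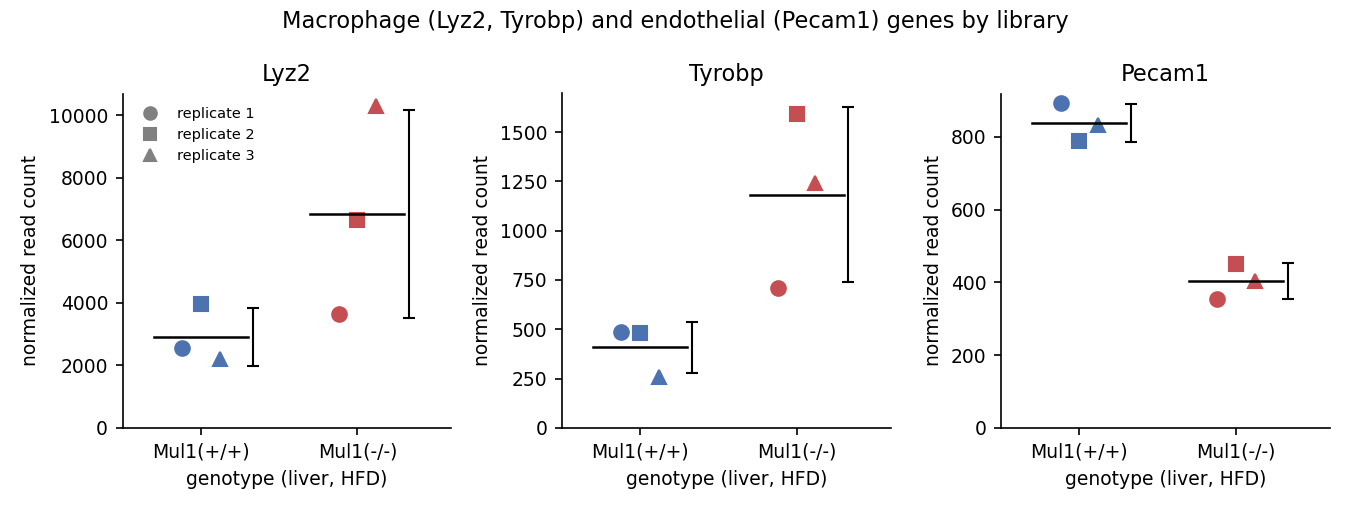
Normalized read counts of Lyz2, Tyrobp and Pecam1 (vertical axes, starting at 0) in the 3 Mul1(+/+) and 3 Mul1(−/−) HFD-livers, with one symbol per replicate number, a line at the mean and a bar of ± 1 SD. Tyrobp and Pecam1 separated the genotypes, in opposite directions, while the lowest Mul1(−/−) value of Lyz2 (3632) lay under the highest Mul1(+/+) value (3954).

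The threshold of the study's methods was a log2 fold change beyond 1 in either direction at an adjusted p of less than 0.01. It was passed by 0 of the 3 genes in limma's test. All 3 had an unadjusted p under 0.05 in that test, as did 3416 of the table's 3542 genes. The threshold of the methods was passed by 24.1% of the table's genes, 16.7% as higher and 7.43% as lower in Mul1(−/−), or 854 genes. The number passing was at most 46 when any Mul1(+/+) library or Mul1(−/−) replicate 2 was left out. With the limit on the adjusted p-value at 0.05, all 3 passed, as did 95.4% of the table. For 2 of the 3 genes the genotypes had no overlapping values, as for 90.3% of the table. Among the 2012 genes that were higher, 84.1% had a larger log2 difference than Lyz2 and 58.7% a larger one than Tyrobp. Among the 1530 genes that were lower, 94.97% had a larger one than Pecam1, so Pecam1 had one of the smaller differences of a table that the authors had selected by size. Counting error was small beside these differences: between 242 reads (Pecam1) and 11701 reads (Lyz2) lay behind a value, and the Poisson error of the fewest reads of each gene was 2.01% for Lyz2, 5.64% for Tyrobp and 6.43% for Pecam1.

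The levels of the 3 genes were compared per kilobase of the longest coding transcript. Lyz2 was the highest, with 5207 ± 2528 normalized counts per kilobase in Mul1(−/−) and 2201 ± 709 in Mul1(+/+) (SD, n = 3 each). Tyrobp followed with 1980.0 ± 745 and 683 ± 219 (SD, n = 3 each). Pecam1 was the lowest, with 117 ± 14.3 and 243 ± 15.2 (SD, n = 3 each). This order held in each of the 6 libraries.

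A ratio of 2 genes within one library does not depend on how the libraries were scaled. In Mul1(+/+) replicates 1 to 3 the normalized count of Lyz2 was 2.85, 5.02 and 2.63 times that of Pecam1. In Mul1(−/−) replicates 1 to 3 it was 10.3, 14.7 and 25.5 times that of Pecam1, so the groups did not overlap although Lyz2 alone did. For Tyrobp the ratio to Pecam1 was 0.544, 0.610 and 0.308 in Mul1(+/+), and 2.01, 3.53 and 3.08 in Mul1(−/−). Tyrobp had fewer counts than Pecam1 in each Mul1(+/+) library and more in each Mul1(−/−) library.

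On the log2 scale the ratio of Lyz2 to Pecam1 was higher in Mul1(−/−) by 2.22 (standard error 0.48, a factor of 4.67), and that of Tyrobp to Pecam1 by 2.57 (standard error 0.39, a factor of 5.96). The exact two-sided permutation test gave p = 0.1 for each, the smallest value it can give. Each ratio divides a gene that the authors' selection kept as higher by a gene it kept as lower. The selection thus favoured this separation in advance, and the test is not independent of it. With each library left out in turn, the first difference stayed between 1.87 and 2.53 and the second between 2.27 and 2.81. The ratio of Lyz2 to Tyrobp differed by −0.35 between the genotypes (standard error 0.37, exact two-sided permutation test, p = 0.3) and its groups overlapped, so a difference between the rises of the 2 macrophage genes was not detected with 3 mice per group. In Mul1(−/−) replicates 1 to 3 this ratio was 5.12, 4.17 and 8.27 on the linear scale.

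**Figure D2:**
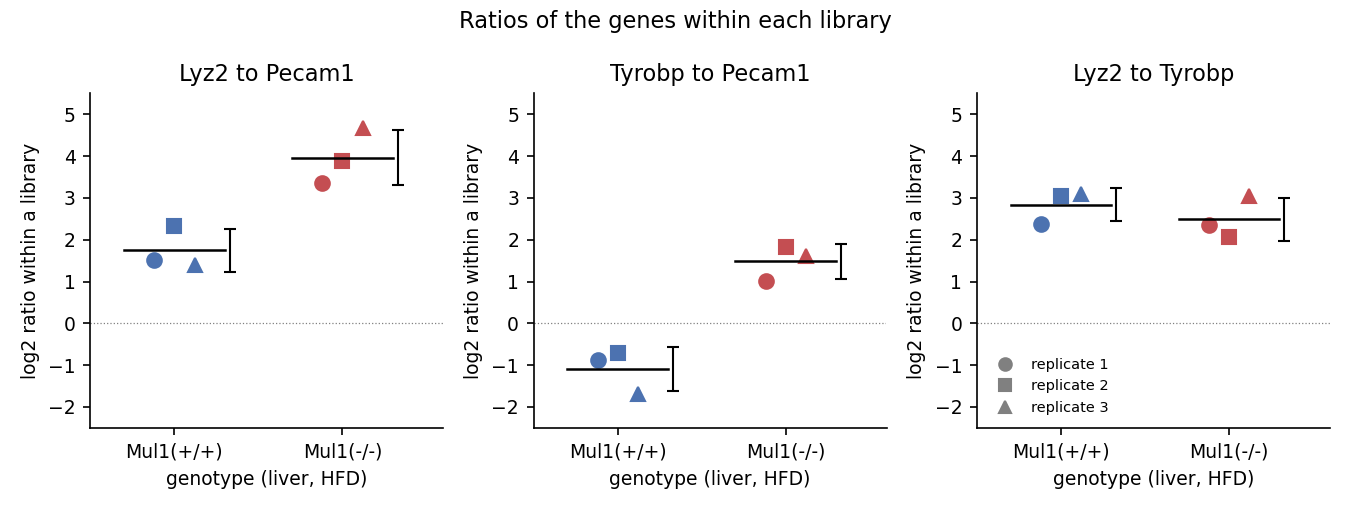
Log2 ratios of normalized counts within each library (vertical axes), for Lyz2 to Pecam1, Tyrobp to Pecam1 and Lyz2 to Tyrobp, by genotype, with the mean and ± 1 SD. Both ratios to Pecam1 lay higher in every Mul1(−/−) library (from 3.36 to 4.67 and from 1.004 to 1.82) than in any Mul1(+/+) library (from 1.40 to 2.33 and from −1.69 to −0.71), while the ratios of Lyz2 to Tyrobp overlapped.

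Over the 6 libraries, Pearson's r of the log2 values was 0.89 between Lyz2 and Tyrobp, −0.69 between Lyz2 and Pecam1 and −0.76 between Tyrobp and Pecam1. These values describe libraries of 2 genotypes that share their scaling, and no test was made of them. The genes of the table whose log2 values followed Lyz2 most closely over the 6 libraries were Sptssa (r = 0.993), Cstb, Rpl5, Fam118a and Gm19619 (r = 0.987). For Tyrobp they were Cd300a (r = 0.999), Cd209a, Cd52, Trbc2 and Fam180a (r = 0.988). For Pecam1 they were Ephb4 (r = 0.994), Kyat3, Yipf6, Mme and Ubqln1 (r = 0.987). Among these, Cd300a, an inhibitory receptor of myeloid cells, averaged 555 ± 186 normalized counts (SD, n = 3) in Mul1(−/−) against 227 ± 55.6 (SD, n = 3) in Mul1(+/+). Ephb4, a receptor tyrosine kinase of venous endothelium, averaged 636 ± 111 in Mul1(−/−) against 1380.2 ± 50.5 in Mul1(+/+) (SD, n = 3 each). Cd300a and Ephb4 were picked for their cell type. Other genes as close were on none of the marker lists used below, such as Rpl5 for Lyz2 (r = 0.989) and Kyat3 for Pecam1 (r = 0.990). Because every gene of the table differs between the genotypes, high correlations are frequent: r was over 0.9 with 115 genes for Lyz2, 356 for Tyrobp and 379 for Pecam1.

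Other markers of the same cells were looked up in lists, of which a gene absent from the table was not analysed here. Of all genes tested, 56.8% were higher in Mul1(−/−), the median log2 difference was 1.12, that of the higher genes alone was 1.67 and that of the lower genes alone was −1.43. The threshold was passed by 16.7% of all genes as higher and by 7.43% as lower. Of 26 pan-macrophage and monocyte genes, Lyz2 and Tyrobp among them, the table held 8, of which 7 were higher and 1 lower in Mul1(−/−), with 1 higher gene past the threshold and a median log2 difference of 1.31. Aif1, the gene of IBA1, had a log2 difference of 1.43 (adjusted p = 0.0173 from limma), Fcgr3, an activating receptor for IgG, one of 1.18 (adjusted p = 0.0328), and Coro1a, an actin regulator of leukocytes, one of 1.13 (adjusted p = 0.0324). The exception to the direction was Laptm5, a lysosomal membrane protein of leukocytes, with normalized counts of 1169, 705 and 648 in Mul1(+/+) and 206, 168 and 556 in Mul1(−/−), a log2 difference of −1.59 (adjusted p = 0.0190 from limma). Ms4a7, a macrophage membrane protein named after its values were seen, was the gene that passed, with 27.0, 27.5 and 22.1 in Mul1(+/+) and 90.6, 156 and 191 in Mul1(−/−), a log2 difference of 2.41 (adjusted p = 0.00591 from limma).

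Of 14 Kupffer cell genes, 1 was in the table: Spic, a transcription factor of iron-recycling macrophages, with a log2 difference of 1.89 (adjusted p = 0.0119 from limma). The genes that define resident Kupffer cells, Clec4f, Vsig4, Timd4, Cd5l and Marco, were not analysed here. Of 15 genes of recruited and lipid-associated macrophages, the table held 10, each with a higher mean in Mul1(−/−). The threshold was passed by 4 of them, beside 16.7% of all the table's genes as higher. The median log2 difference of the 10 was 1.68, close to the 1.67 of all the table's higher genes. The 4 were Cd63, a tetraspanin of late endosomes (log2 difference 2.58, adjusted p = 0.00640 from limma), Plac8 (2.35, adjusted p = 0.00692), Lpl, lipoprotein lipase (1.67, adjusted p = 0.00939), and Spp1, osteopontin (1.66, adjusted p = 0.00889). Cd9 and Lgals3, the genes of a tetraspanin and of galectin-3, had 1.45 and 1.11 without passing. Cd63, Cd9, Spp1 and Lpl are made by other cells too, Spp1 among them by bile duct cells.

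Trem2, the lipid receptor that signals through DAP12, and Gpnmb rested on 1 library. Trem2 had 30.3, 61.1 and 57.2 in Mul1(+/+) against 57.0, 121 and 533 in Mul1(−/−), in order of replicate, and Gpnmb, named after its values were seen, had 17.7, 45.2 and 27.8 against 29.2, 67.4 and 560. In both genes replicate 1 of Mul1(−/−) lay within the Mul1(+/+) values and replicate 3, which was also the highest for Lyz2, stood far above the rest. Over all 6 libraries the log2 differences were 1.69 for Trem2 (adjusted p = 0.0425 from limma) and 1.85 for Gpnmb (adjusted p = 0.0672). Without Mul1(−/−) replicate 3 they were 0.80 (adjusted p = 0.122 from limma) and 0.64 (adjusted p = 0.234), and without Mul1(−/−) replicate 1 both passed the threshold, at 2.40 (adjusted p = 0.00934) and 2.75 (adjusted p = 0.00965). Without Mul1(−/−) replicate 3, Lyz2 had 0.81 (adjusted p = 0.0923 from limma) and Tyrobp 1.44 (adjusted p = 0.0158).

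On the endothelial side, 6 of 29 pan-endothelial genes, Pecam1 among them, were found, 5 of them lower and 1 higher in Mul1(−/−). Their median log2 difference was −1.20, smaller in size than the −1.43 of all the table's lower genes. Past the threshold was 1 lower gene, beside 7.43% of all the table's genes as lower. Aqp1, a water channel of endothelium and bile duct, was the gene that passed, at −1.86 (adjusted p = 0.00916 from limma). Tie1, an endothelial receptor tyrosine kinase, had 619, 572 and 579 in Mul1(+/+) and 304, 251 and 292 in Mul1(−/−), a difference of −1.07 that was close in size to that of Pecam1 (−1.06). Erg, an endothelial transcription factor, had −1.78 (adjusted p = 0.0108 from limma), and Plvap, which forms the diaphragms of endothelial pores, −1.34 (adjusted p = 0.0173). Sox17, a transcription factor of arterial endothelium, went the other way, with 53.1, 54.9 and 49.8 in Mul1(+/+) and 203, 119 and 91.3 in Mul1(−/−), a difference of 1.29 (adjusted p = 0.0189 from limma).

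Of 22 genes of the liver sinusoidal endothelium, the table held 9, of which 8 were lower and 1 higher. Past the threshold were 3 lower genes, beside 7.43% of all the table's genes as lower. The median log2 difference of the 9 was −1.47, close to the −1.43 of all the table's lower genes. The 3 were Dnase1l3, a secreted DNase (−2.56, adjusted p = 0.00518 from limma), Gata4, the transcription factor of sinusoidal identity (−1.99, adjusted p = 0.00910), and Ehd3, an endocytic ATPase (−1.99, adjusted p = 0.00692). The lectin Clec4g, the IgG receptor Fcgr2b and the receptor Flt4 had −1.18, −1.08 and −1.49 without passing. The exception was Rspo3, a Wnt amplifier of the central vein, named after its values were seen, at 1.26 (adjusted p = 0.0309 from limma). In bulk tissue, fewer cells of a type and less RNA per cell cannot be told apart, for these lists as for Pecam1, Lyz2 and Tyrobp.

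**Figure D3:**
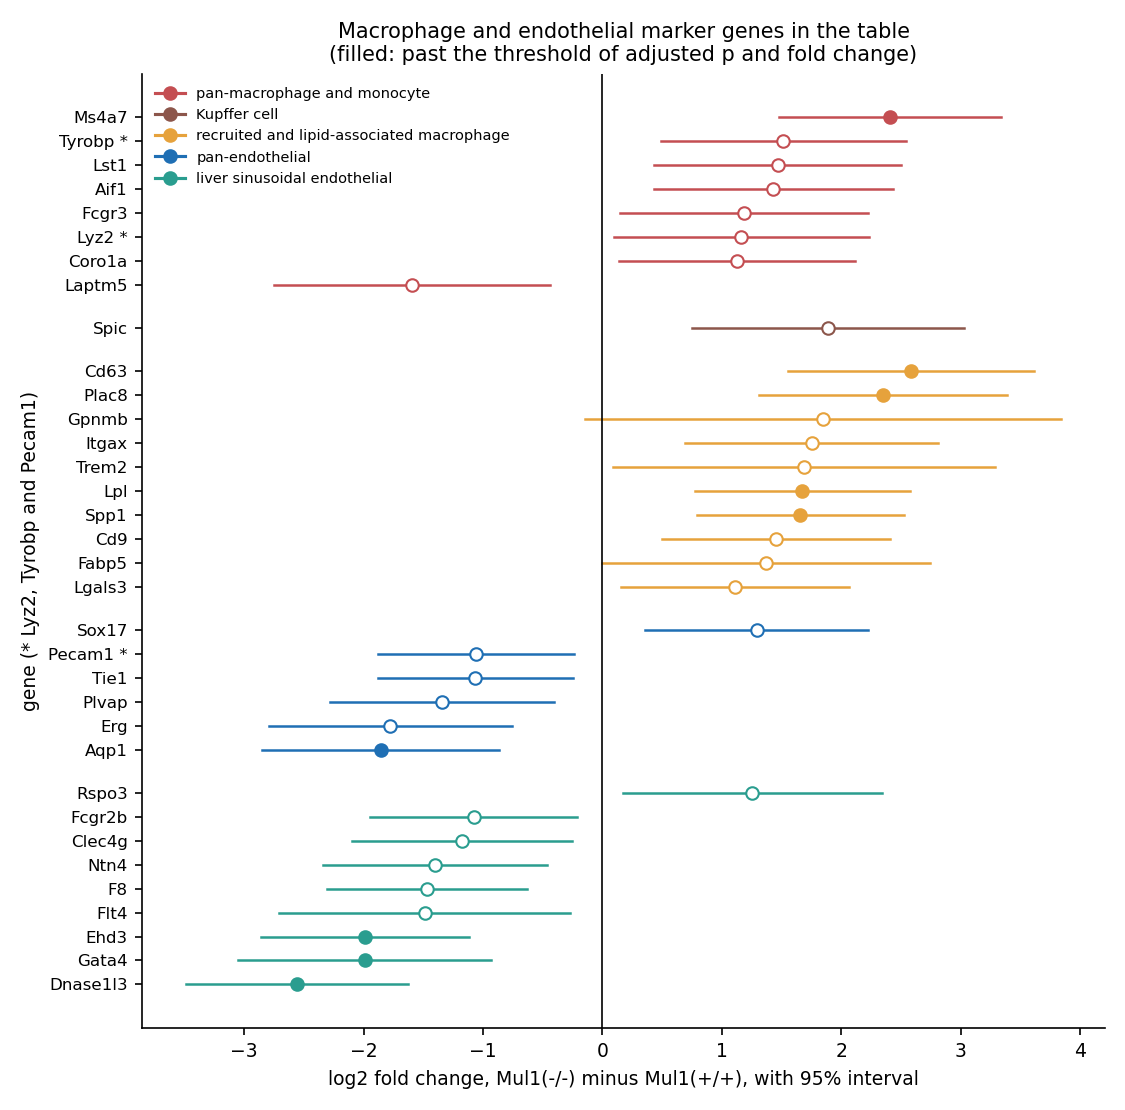
Log2 difference between Mul1(−/−) and Mul1(+/+) HFD-liver (horizontal axis) with its 95% interval from limma, for each gene of the macrophage and endothelial lists that was in the table, coloured by list, with filled points past the threshold and asterisks at Lyz2, Tyrobp and Pecam1. Macrophage genes lay to the right apart from Laptm5 (−1.59), and endothelial genes to the left apart from Sox17 (1.29) and Rspo3 (1.26).

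The summed levels of the lists were set side by side by library. The 8 pan-macrophage genes summed to between 3611 and 6111 normalized counts in Mul1(+/+) and between 6033 and 14191 in Mul1(−/−), which overlapped. The 10 genes of recruited and lipid-associated macrophages summed to between 3696 and 4855 and between 12183 and 17771. Spp1, Cd63, Cd9 and Lpl, which other cells make too, had the highest means of this list in both genotypes. In Mul1(−/−) these means were 4084, 2855, 2349 and 2281 normalized counts. The 6 pan-endothelial genes summed to between 8284 and 8873 in Mul1(+/+) and between 2475 and 4539 in Mul1(−/−), and the 9 sinusoidal genes to between 11467 and 12983 and between 4009 and 5481. The sums of these 3 lists did not overlap between the genotypes. Every gene in them had been selected by the authors for a difference, and 90.3% of the table's genes did not overlap. The selection thus favoured this separation in advance, and the sums were not tested.

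**Figure D4:**
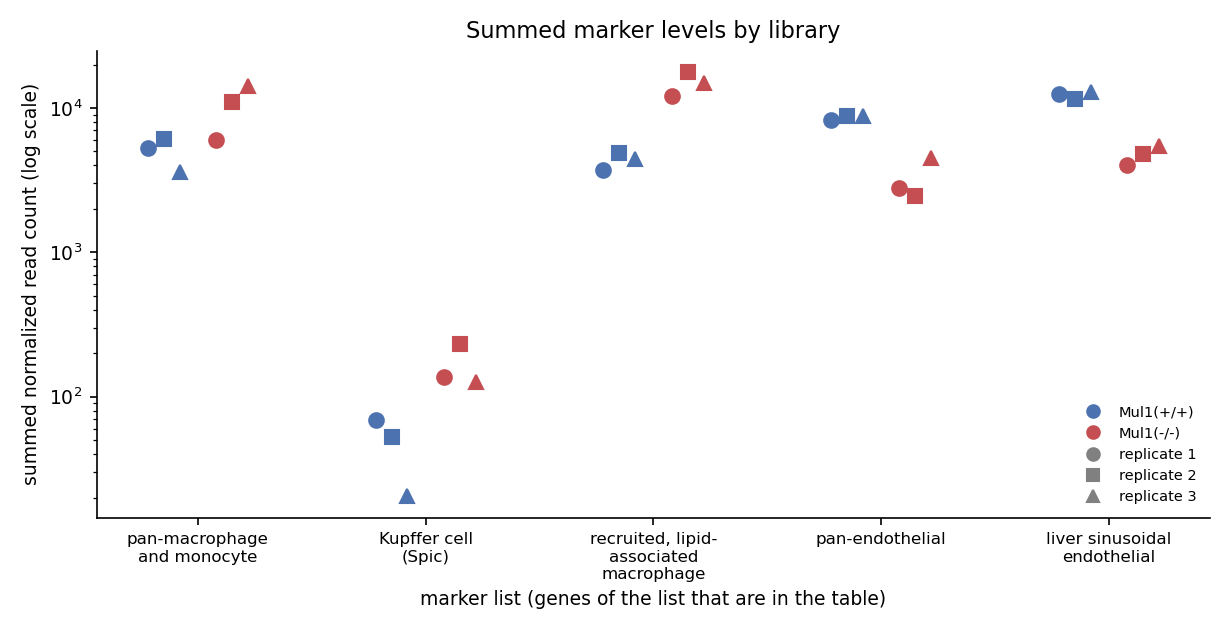
Summed normalized counts (vertical axis, log scale) of the table's genes of 5 marker lists in each library, with colours for genotype and symbols for replicate number. The pan-macrophage sums overlapped between the genotypes (at 6111 and 6033), while the recruited macrophage sums were higher and both endothelial sums lower in every Mul1(−/−) library. All genes summed had been selected for a difference, and the largest of the recruited list (Spp1, Cd63, Cd9 and Lpl) are made by other cells too.

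The sum of the 3 macrophage lists divided by that of the 2 endothelial lists was 0.433, 0.542 and 0.370 in the Mul1(+/+) livers against 2.71, 3.97 and 2.92 in the Mul1(−/−) livers. Without Lyz2, Tyrobp and Pecam1 it was between 0.267 and 0.337 in Mul1(+/+) and between 1.84 and 3.03 in Mul1(−/−). Leaving out Spp1, Cd9, Cd63 and Lpl as well, a choice made after their values were seen that gave 13 macrophage and 14 endothelial genes, it was between 0.102 and 0.157 and between 0.729 and 0.851. These ratios are taken over genes already selected for a difference, so they describe the table's genes and were not tested.

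The 3 genes also differ in length, and the direction of change in the table went with length. The table's 2851 protein-coding genes were divided into 10 length classes of equal size by the longest coding transcript. In the shortest class, which holds Tyrobp, 97.2% were higher in Mul1(−/−), and in the next, which holds Lyz2, 83.9% were. In the class from 3181 to 3717 nucleotides, which holds Pecam1, 29.5% were higher. Spearman's rho between length and log2 difference over these genes, which are not independent replicates, was −0.43. The macrophage genes of the lists have a median length of 1347 nucleotides and the endothelial genes one of 3441. Single genes of the lists lay on either side of this pattern. Laptm5, the longest of the table's pan-macrophage genes (2600 nucleotides), was the lower one of that list (log2 difference −1.59). Itgax (4046 nucleotides, log2 difference 1.75), Lpl (4115 nucleotides) and Gpnmb (3701 nucleotides, resting on 1 library) were long and higher. Clec4g (1441 nucleotides) and Plvap (1987 nucleotides) were endothelial genes with short transcripts that were lower. Itgax, the gene of CD11c, was named after its values were seen. The part of length in the difference of Lyz2, Tyrobp or Pecam1 was not tested.

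**Figure D5:**
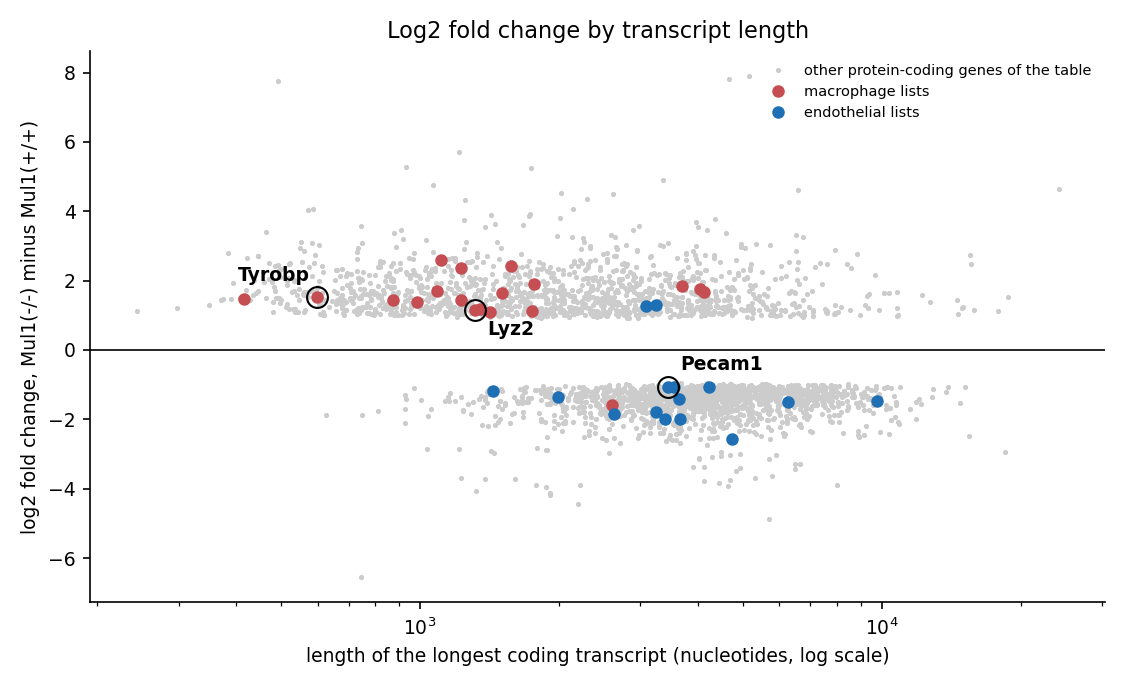
Log2 difference between Mul1(−/−) and Mul1(+/+) (vertical axis) against the length of the longest coding transcript (horizontal axis, log scale) for the table's protein-coding genes, with genes of the macrophage lists in red, those of the endothelial lists in blue, and rings around Lyz2, Tyrobp and Pecam1. The band without points around 0 is the authors' selection, and points above 0 were more frequent among short transcripts, where Tyrobp (597 nucleotides) and Lyz2 (1316 nucleotides) lie, than at the length of Pecam1 (3441 nucleotides).

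DAP12 works with receptors that were looked up, with its signalling partners and Tyrobp itself, as a list of 29 genes. Of these, the table held 9, each with a higher mean in Mul1(−/−), 3 of them past the threshold, with a median log2 difference of 1.69, close to the 1.67 of all the table's higher genes. Of all the table's genes, 16.7% passed as higher. Klrk1, the gene of the natural killer receptor NKG2D, had 70.0, 49.6 and 23.7 in Mul1(+/+) and 126, 263 and 103 in Mul1(−/−), a difference of 1.76 (adjusted p = 0.0148 from limma). Klrd1, the gene of CD94, had 4.21, 15.9 and 1.63 against 23.4, 98.0 and 72.02, a difference of 3.19 (adjusted p = 0.00816 from limma), and Pilrb1, an activating receptor, had 1.06 (adjusted p = 0.0299). The others past the threshold were Sirpb1a and Klrc2, named after their values were seen, with at most 4.90 normalized counts in a Mul1(+/+) library.

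Hcst, the gene of the adaptor DAP10, lies 126 bases from Tyrobp on the opposite strand (chr7:30417712-30419854). Its normalized counts were 8.43, 15.9 and 10.6 in Mul1(+/+) and 21.9, 69.8 and 34.3 in Mul1(−/−), a log2 difference of 1.65 (adjusted p = 0.0150 from limma). The order of the 3 Mul1(−/−) libraries was the same as for Tyrobp, with replicate 2 highest and replicate 1 lowest. The 2 annotated genes do not overlap, but their ends, not their starts, face each other. The use of strand is not given, and whether reads running past the end of Tyrobp were counted for Hcst was not tested. Pecam1 has Milr1, the gene of an inhibitory receptor of mast cells and myeloid cells, 597 bases away on the opposite strand. Here the neighbours differed in opposite directions, since Milr1 had 32.0, 34.5 and 13.9 in Mul1(+/+) and 71.6, 143 and 68.5 in Mul1(−/−), a difference of 1.79 (adjusted p = 0.0120 from limma). Hcst and Milr1 were named as neighbours after their values were seen.

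Promoters from RefSeq on GRCm38.p6 are shown for Lyz2 and for Hcst, the neighbour of Tyrobp, since myeloid genes are known to carry sites for factors of the ETS family such as PU.1, whose core is GGAA. Those of Tyrobp and Pecam1 are not shown, and the Hcst stretch lies on the side of Hcst that faces away from Tyrobp. Capitals mark GGAA on either strand in the 200 bases at chr10:117282323-117282522 and the 250 bases at chr7:30419855-30420104, both on the minus strand.
Lyz2: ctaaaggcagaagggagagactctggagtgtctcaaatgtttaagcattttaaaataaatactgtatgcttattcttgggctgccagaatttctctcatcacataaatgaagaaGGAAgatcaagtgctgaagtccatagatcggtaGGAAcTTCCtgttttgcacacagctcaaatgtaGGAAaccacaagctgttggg
Hcst: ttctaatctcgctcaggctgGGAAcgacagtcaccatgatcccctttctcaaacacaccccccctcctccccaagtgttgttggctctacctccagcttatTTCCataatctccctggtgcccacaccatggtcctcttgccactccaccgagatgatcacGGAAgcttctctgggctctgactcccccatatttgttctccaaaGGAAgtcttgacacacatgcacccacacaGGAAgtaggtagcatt
The Lyz2 stretch holds 4 such cores, 1 of them on the opposite strand, and 20.4% of 32851 promoters hold as many or more in the same length. At least 1 is held by 89.2%. The Hcst stretch holds 5, as many or more than which are held by 18.0% of promoters. These matches are letters in a window, not sites.

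For the lysosome, where lysozyme is stored, the table held 7 of 31 looked up, and 2 of these were higher and 5 lower in Mul1(−/−). Beside Lyz2, the higher gene was Ctsl, the protease cathepsin L, with a mean 1.16 above that of Mul1(+/+) on the log2 scale (adjusted p = 0.0231 from limma). Gaa, the acid alpha-glucosidase, Man2b1, a mannosidase, and Psap, the precursor of saposins, had −1.56, −1.23 and −1.15 without passing the threshold. Laptm5, described with the pan-macrophage list, is on this list too. The enzymes of this list are made by hepatocytes as well as by macrophages.

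Among partners of PECAM1 and other genes of leukocyte passage, the table held 6 of 30, of which 4 were lower and 2 higher. In limma's test 0 were past the threshold and all 6 had an unadjusted p under 0.05, as did 3416 of the table's 3542 genes. Ptpn11, the phosphatase SHP2 that binds the cytoplasmic tail of PECAM1, had −1.40 (adjusted p = 0.0119 from limma), and the junction proteins Ctnnb1 (beta-catenin) and Jup (plakoglobin) had −1.49 and −1.36. All 3 are expressed widely, hepatocytes included. Jam3, a junctional adhesion molecule, had 1.15 and Cd47, the signal that restrains uptake by macrophages, 1.05. 

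Lists of other cells that express Lyz2, Tyrobp or Pecam1 gave the following counts, beside 16.7% of all the table's genes that passed the threshold as higher in Mul1(−/−). Of 12 neutrophil genes, 1 was in the table, Csf3r, the G-CSF receptor, at 1.15 (adjusted p = 0.0618 from limma), and S100a8, S100a9 and Ly6g were not analysed here. Of 10 natural killer cell genes, 3 were in the table, all with higher means and 1 past the threshold: Klre1 at 2.56 (adjusted p = 0.00697 from limma). Klrk1 and Gzmb, granzyme B, had 1.76 and 1.90 in the same list. Of 10 T cell genes, 2 were in the table, Cd3d and Cd8a, at 1.71 and 1.79 without passing (adjusted p = 0.0190 and 0.0278 from limma). Of 12 dendritic cell genes, 3 were in the table and higher, 2 past the threshold: Clec9a at 2.19 (adjusted p = 0.00701 from limma) and Cd209a at 2.62 (adjusted p = 0.00833). Batf3 had 1.64.

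Of 10 platelet genes, 1 was in the table, Pf4, platelet factor 4, at 2.5 (adjusted p = 0.0151 from limma), and of 10 B cell genes 0 were. The summed levels of these lists were low: between 38.4 and 121 normalized counts for the natural killer list and between 49.0 and 100 for the dendritic list in Mul1(+/+), and between 194 and 372 and between 233 and 445 in Mul1(−/−). The T cell genes summed to between 13.9 and 60.2 in Mul1(+/+) and between 89.1 and 202 in Mul1(−/−), and Csf3r had between 46.6 and 64.1 and between 51.8 and 197. The Pf4 value was between 2.45 and 28.7 in Mul1(+/+) and between 48.2 and 108 in Mul1(−/−), the opposite direction to Pecam1. The part of natural killer, dendritic or other cells in the values of Lyz2, Tyrobp and Pecam1 was not tested. Of 18 hepatocyte genes, 4 were in the table, Apob, Fga, Hnf4a and Tat, all lower, at −1.05, −1.40, −1.81 and −1.17. In limma's test 0 were past the threshold and all 4 had an unadjusted p under 0.05, as did 3416 of the table's 3542 genes. The sum of the 4 hepatocyte genes was between 460801 and 557583 in Mul1(+/+) and between 174699 and 291107 in Mul1(−/−).

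The size of each difference depended on the scaling of the libraries, while its direction did not. Rescaling the libraries by their median ratio across the table moved the median log2 difference of all genes by −0.66 and that of Lyz2 to 0.50 (adjusted p = 0.372 from limma), of Tyrobp to 0.86 (adjusted p = 0.121) and of Pecam1 to −1.72 (adjusted p = 0.00888, past the threshold). Rescaling by the table's total moved all genes by −0.30 and gave 0.86, 1.21 and −1.36. Leaving the mitochondrial genome out of that total gave 1.21, 1.56 and −1.02. Without Mul1(−/−) replicate 1, the library with the largest mitochondrial share, Lyz2 had 1.56 (adjusted p = 0.0211 from limma), Tyrobp 1.84 (adjusted p = 0.0124) and Pecam1 −0.97 (adjusted p = 0.0770).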

How the data were processed

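mRNA sequencing of liver tissue from 3 Mul1(+/+) and 3 Mul1(−/−) mice on HFD was analysed. A service provider made, sequenced and processed the libraries, and the groups were compared by the authors with DESeq2 and its Wald test. The aligner, counter, genome build, read length and use of strand are not given in the sources used here. The authors deposited 1 table of selected genes, whose library columns are read counts divided by 1 factor per library (1 read was worth between 0.817 and 1.46). All values under 10000 were whole multiples of it within 0.1 read. Its log2 fold change and p-value columns are the authors' deposited comparison and were not used.

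log2(normalized count + 1) was fitted with limma 3.58.1 (R 4.3.3) by genotype over all 3542 genes, with Benjamini-Hochberg adjustment, after the script was tested on simulated data. A gene passed at an adjusted p-value of less than 0.01 with a log2 fold change beyond 1 in either direction. Single values were compared by the exact two-sided permutation test (20 permutations), ratios on the same log2 scale. Spearman's rho was computed with scipy 1.17.1. Limma's p-values set the genotype difference against the spread between libraries within a genotype, moderated over the table's selected genes. The permutation test ranks the difference among all relabellings of these 6 libraries. Samples were grouped by the labelled genotype. Coordinates, exons and lengths are from GENCODE M21 (GRCm38), to which 3531 genes matched, and may not be the authors' annotation. Recovered reads were used for counting error and totals, and no count model was run on them.

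Named were Lyz2, Tyrobp, Pecam1 and Mul1, the 5 genes most correlated with each of the first 3, and of each list all genes in the table or, beyond 6, the 6 with the highest mean. The genes and all 15 lists were chosen with earlier results of these data known. Alternatives were other pseudocounts, a filter on low values, 3 rescalings, limma-trend, a threshold of 0.05, a replicate block and leaving out each library. A result of the lysosome list is not reported here.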

Additional observations from a re-analysis of the deposited data

How the results depend on the processing

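Lyz2, Tyrobp and Pecam1 kept their direction under all 15 alternatives run for each, and the ratios of both macrophage genes to Pecam1 under all 8 run for each. The log2 difference of Lyz2 lay between 0.50 and 1.56, that of Tyrobp between 0.86 and 1.84 and that of Pecam1 between −1.72 and −0.97. The adjusted p-values from limma ranged from 0.0187 to 0.372 for Lyz2, from 0.00670 to 0.121 for Tyrobp and from 0.00888 to 0.0876 for Pecam1. Unlike in limma's default fit of the values as deposited, the threshold was passed by Pecam1 at −1.72 after rescaling by the median ratio. Tyrobp passed it at 1.52 under limma-trend, with the scaling as deposited. All 3 passed with the limit at 0.05 (1.16, 1.52 and −1.06). The number of genes past the threshold, 854, was 1399 with a pseudocount of 5, 1343 after rescaling by the table's total, 1869 under limma-trend and 3380 with the limit at 0.05. The cause was not tested. Leaving out 1 library gave between 10 and 2673, with 10 without Mul1(−/−) replicate 2, 13, 25 and 46 without Mul1(+/+) replicates 2, 1 and 3, and 2673 without Mul1(−/−) replicate 3.

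With the replicate number as a block, 0 genes passed in limma's test, 3245 passed with the limit at 0.05 and 3314 had an unadjusted p under 0.05, against 3416 without the block. Same-numbered libraries deviated together with correlations of 0.0218, 0.3521 and 0.0541 for replicates 1, 2 and 3. The value of replicates 2 was the largest of all pairs, while not every library correlated best with its own number. The labels give no link beyond the number, and 3 libraries per group cannot show whether there is one. The planned tests with count models (quasi-likelihood and Wald) on recovered reads were not run. Libraries of 3 mice per group and a table already selected limit what a p-value here can show. The largest counting error was 2.01% for Lyz2 and 5.64% for Tyrobp, small beside their coefficients of variation of at least 32.1%. For Pecam1 it was 6.43%, beside coefficients of variation of 6.26% in Mul1(+/+) and 12.2% in Mul1(−/−). Counting error was thus not small beside the spread of Pecam1 between mice.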
